A study of Mus musculus with 7 samples.

Results

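H3K27me3 peaks that were called in mouse spermatocytes at postnatal day 12 (P12) and shared no base with any H3K27me3 peak called at postnatal day 17 (P17) are described here. They were chosen by the positions of peaks in these 2 deposited lists and number 611 of 13028 P12 H3K27me3 peaks, or 4.69%. The P17 H3K27me3 list was the larger, with 26387 peaks over 86.4 Mb against 21.6 Mb covered at P12. Of the 611, 585 lay across the genome and 26 lay in a single stretch of chromosome 6, at 52097777 to 52230508 in the mm9 build, where the P17 list has a gap. From general knowledge of mm9, that stretch holds the HoxA gene cluster, and its peaks are treated apart. All samples were bulk preparations of wild-type (WT) CD1 spermatocytes, obtained by enzymatic digestion of testes and a Percoll gradient, then fixed with formaldehyde and immunoprecipitated. The lists used were P17 H3K27me3 and P12 H3K27me3, P17 H3K4me3 and P12 H3K4me3, and P17 EED. The P17 histone lists each pool 2 replicates, and the others come from 1. Of the 7 samples, 5 had files analysed here, and the input samples were not analysed here. Marks were read from the sample titles, because the label for the antibody of the P17 H3K4me3 sample gives the one against H3K27me3.

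H3K27me3 is a repressive histone mark written by Polycomb repressive complex 2 (PRC2), whose core holds EZH2 or EZH1, SUZ12 and EED. EED binds H3K27me3 and stimulates the enzyme, which helps the mark spread and persist. H3K4me3 marks promoters, and in germ cells many promoters of developmental genes are known to carry both marks. In mammals PRC2 sits mostly at CpG-rich DNA.

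Each mark had 1 list per stage, which leaves no replicate spread and no p-value. Wilson 95% intervals of shares cover counting error only, and treat peaks as independent. The lists hold no score or read count, so the depth behind a peak is unknown. In bulk material, fewer cells with a mark and less of the mark per cell cannot be told apart. The files measure no expression, so cell identity could not be checked by transcripts. As a description, H3K27me3 reads over gene bodies had a median of 17.1 reads scaled to the library total (CPM) at P17 and 22.3 CPM at P12 over 8 spermatocyte markers. Over 6 Sertoli cell markers the medians were 49.5 CPM at P17 and 24.0 CPM at P12. They were 7.95 and 7.91 CPM, P17 and P12, over 8 markers of Leydig and other somatic cells, and 96.6 and 99.98 CPM over 5 spermatogonial markers. The part of other cell types in the results below was not tested.

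The DNA around the HoxA genes varied in its content of CG dinucleotides, and 3 promoters are printed to show that range. They are the 250 bases before the start of Hoxa13, which had the most CG of the promoters found, of Hoxa5, which had the highest ratio of H3K27me3 reads, and of Hoxa9, which had the least. The Hox genes encode homeodomain factors that set position along the body axis. Sequences are from RefSeq, build GRCm38.p6, written 5′ to 3′ on the minus strand of the genes, with each CG in capitals. Those coordinates are not mm9 and cannot be set against the peak positions, so no peak is assigned to a promoter.
Hoxa13 (GRCm38.p6 chr6:52260881-52261130, minus strand): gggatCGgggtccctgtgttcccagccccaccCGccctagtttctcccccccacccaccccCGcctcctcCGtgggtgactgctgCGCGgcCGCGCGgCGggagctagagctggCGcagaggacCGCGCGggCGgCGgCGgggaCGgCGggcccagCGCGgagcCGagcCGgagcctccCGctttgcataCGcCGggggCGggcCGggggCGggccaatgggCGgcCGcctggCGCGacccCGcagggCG
Hoxa5 (GRCm38.p6 chr6:52204588-52204837, minus strand): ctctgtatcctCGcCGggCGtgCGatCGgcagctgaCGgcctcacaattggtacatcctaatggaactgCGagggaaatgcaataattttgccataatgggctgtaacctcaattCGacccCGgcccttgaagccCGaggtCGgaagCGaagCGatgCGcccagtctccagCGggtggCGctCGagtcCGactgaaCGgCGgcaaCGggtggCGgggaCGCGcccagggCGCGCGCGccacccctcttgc
Hoxa9 (GRCm38.p6 chr6:52227371-52227620, minus strand): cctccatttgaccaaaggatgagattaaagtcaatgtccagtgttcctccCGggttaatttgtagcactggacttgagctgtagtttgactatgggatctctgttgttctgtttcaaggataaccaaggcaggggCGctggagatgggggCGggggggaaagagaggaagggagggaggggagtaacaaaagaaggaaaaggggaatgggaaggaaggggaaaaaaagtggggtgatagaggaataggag
The motif searched was CG, which reads the same on both strands. Hoxa13 held 35 of them, a number reached by 2.97% of the 32851 promoters in the table. Hoxa5 held 28, reached by 7.61%, and Hoxa9 held 3, reached by 71.0%. Promoters were found for 9 of 10 HoxA genes analysed, 10 promoters in all, with a median of 15.5 CG against 6 over all promoters.

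The 585 missing peaks outside the HoxA stretch were narrow. Their widths ran from 187 to 6154 bp with a median of 587 bp, and the middle 80% lay between 424 and 856 bp. The 12417 P12 peaks that had a P17 H3K27me3 peak ran from 195 to 25303 bp with a median of 1131 bp. The missing peaks covered 0.380 Mb together, against 21.1 Mb for the peaks with a P17 counterpart. Width belongs to the lists that chose the members, and a wide peak has more bases on which to meet another, so these widths are a description. Of P12 peaks under 500 bp, 22.2% were missing (153 of 688), of those of 500 to under 750 bp 11.1% (325 of 2939), of those of 750 to under 1000 bp 3.20% (73 of 2278), and of those of 1000 bp or more 0.479% (34 of 7097). Peaks under 750 bp thus made up most of the missing set.

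**Figure D1:**
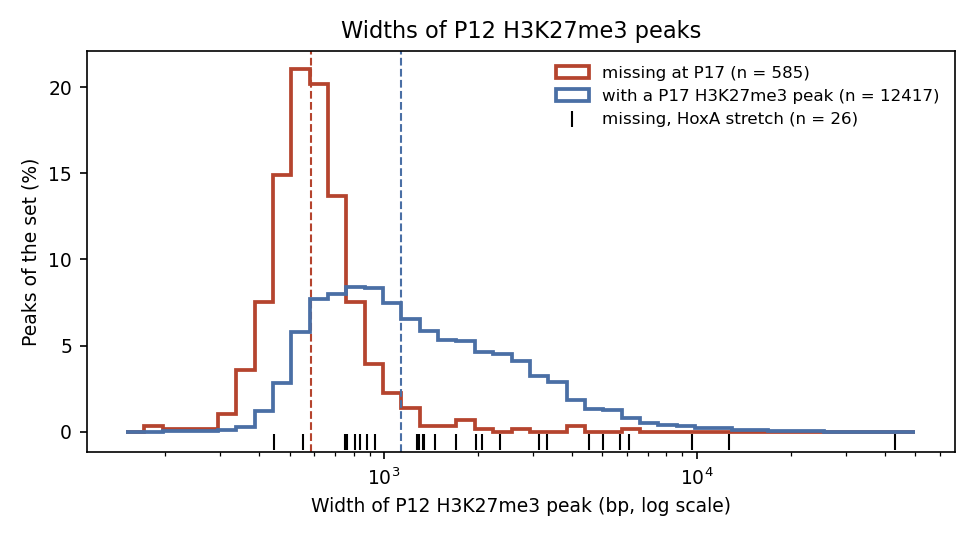
Widths of P12 H3K27me3 peaks on a log scale, as a percentage of each set, for the 585 missing at P17 outside the HoxA stretch (red), the 12417 with a P17 H3K27me3 peak (blue) and the 26 in the HoxA stretch (black marks under the zero line, 1 per peak). Dashed lines are medians, at 587 bp for the missing peaks and 1131 bp for those with a P17 peak.

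Distances of the 585 to H3K27me3 called at P17 come from the lists that chose them and are given as a description, with no background distance. The nearest P17 H3K27me3 peak was at a median distance of 4628 bp, and the middle 50% of distances lay between 1231 and 15107 bp. It was within 1 kb for 121 peaks, or 20.7% (17.6% to 24.2%), and within 5 kb for 301, or 51.5% (47.4% to 55.5%). For 86 peaks, a P17 peak lay within 5 kb on both sides. At the other end, 23 peaks, or 3.93% (2.63% to 5.83%), lay more than 100 kb from any P17 H3K27me3 peak. The nearest P17 peaks were of ordinary size, 2443 bp in the median where all P17 H3K27me3 peaks had 2529 bp. Of these nearest P17 peaks, 37.3% overlapped a P12 H3K27me3 peak, against 32.1% of all P17 peaks. A P12 peak that did have a P17 counterpart lay within 5 kb of 133 missing peaks, or 22.7%.

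**Figure D2:**
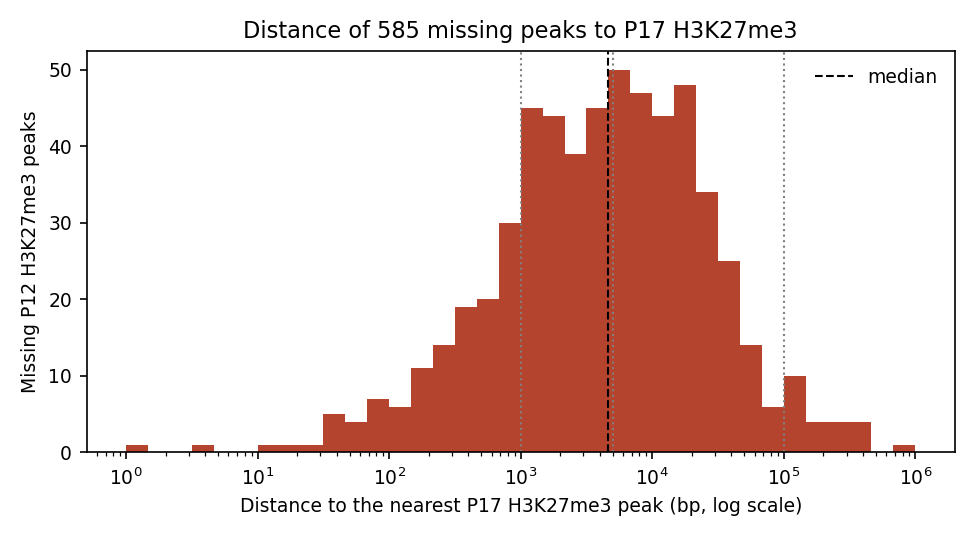
Distance from each of the 585 missing peaks to the nearest P17 H3K27me3 peak, on a log scale, with the median of 4628 bp dashed and dotted lines at 1, 5 and 100 kb. Distances spread from 1 to 946208 bp around a broad centre of a few kilobases.

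The rule separated peaks that differed by few bases. The missing peak nearest to a P17 peak, on chromosome 2 at 74766790 to 74767172, was 1 bp away from it. The next were 4 bp away, on chromosome 5 at 118980010 to 118980585, and 13 bp away, on chromosome 13 at 60275242 to 60275847. Just outside the rule, a P12 peak on chromosome 8 at 120017239 to 120018140 shared 8 bp with a P17 peak, one on chromosome 19 at 44711701 to 44712250 shared 14 bp, and one on chromosome 17 at 50208258 to 50208843 shared 15 bp. None of these 6 overlapped H3K4me3 or EED.

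Few of the missing peaks carried H3K4me3, which the rule did not use. A P17 H3K4me3 peak overlapped 52 of the 585, or 8.89% (6.84% to 11.5%), against 69.1% (68.2% to 69.9%) of P12 peaks with a P17 H3K27me3 counterpart. Over all P12 H3K27me3 peaks the share was 66.3%. A P12 H3K4me3 peak overlapped 43, or 7.35% (5.50% to 9.75%), against 65.8% (65.0% to 66.6%) of those with a counterpart and 63.1% of all P12 H3K27me3 peaks. The intervals of the sets lay far apart at both stages.

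The share with H3K4me3 moved with width, so the sets were also compared within classes of width. Under 500 bp, P17 H3K4me3 lay on 6.54% of missing peaks (10 of 153; 3.59% to 11.6%) and on 43.7% of those with a P17 counterpart (39.6% to 48.0%). At 500 to under 750 bp the shares were 8.92% of missing peaks (6.28% to 12.5%) and 43.1% of peaks with a counterpart (41.2% to 45.0%). At 750 to under 1000 bp they were 6.85% of missing peaks (2.96% to 15.1%) and 53.1% of peaks with a counterpart (51.0% to 55.1%). At 1000 bp or more they were 23.5% of missing peaks (8 of 34; 12.4% to 40.0%) and 85.6% of peaks with a counterpart (84.7% to 86.4%). The gap between the sets was present in each class, and the P12 H3K4me3 list gave it too, with 5.23%, 7.08%, 8.22% and 17.6% of missing peaks from the narrowest class to the widest, against 38.1%, 38.2%, 48.2% and 83.6% of peaks with a counterpart.

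**Figure D3:**
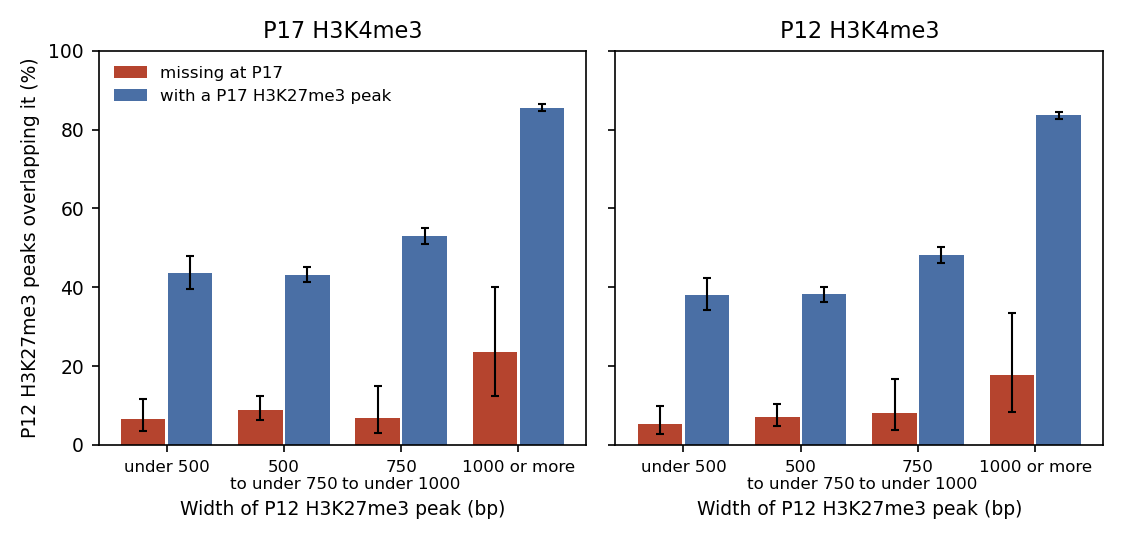
Percentage of P12 H3K27me3 peaks that overlap H3K4me3 at P17 (left) and at P12 (right), by width class, for peaks missing at P17 outside the HoxA stretch (red) and peaks with a P17 H3K27me3 peak (blue). Bars are shares and whiskers Wilson 95% intervals; red bars lie below blue bars in every class, and the red bars of the widest class rest on 34 peaks.

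H3K4me3 did not often appear at P17 where H3K27me3 was no longer called. Of the 542 missing peaks without H3K4me3 at P12, 15, or 2.77% (1.68% to 4.52%), overlapped it at P17, against 11.2% (10.2% to 12.1%) of the 4247 such peaks with a P17 H3K27me3 counterpart. Of the 43 with H3K4me3 at P12, 37, or 86.0% (72.7% to 93.4%), overlapped it at P17, against 99.2% (98.9% to 99.3%) of those with a counterpart. Most of the set, 527 peaks or 90.1% (87.4% to 92.3%), overlapped H3K4me3 at neither stage. That share was 30.4% of peaks with a counterpart and 33.1% of all P12 H3K27me3 peaks. It also moved with width. Under 500 bp it was 92.8% of missing peaks against 55.3% of peaks with a counterpart, and at 500 to under 750 bp 90.2% against 55.9%. The widest P17 H3K4me3 peak on each of the 52 was 1892 bp wide in the median, against 2362 bp on peaks with a counterpart. These values were not compared within classes of width, and a wide peak can meet more H3K4me3 peaks. For 5 of the 52, the H3K4me3 peak touched a P17 H3K27me3 peak beside the missing one. A P17 H3K4me3 peak lay within 5 kb of 35.6% (31.8% to 39.5%), against 86.2% (85.5% to 86.8%) of peaks with a counterpart.

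Among the 23 that lay over 100 kb away, 8 overlapped P17 H3K4me3, or 34.8% (18.8% to 55.1%), and 9 overlapped P12 H3K4me3, or 39.1% (22.2% to 59.2%). Among the 121 within 1 kb, 6 overlapped P17 H3K4me3, or 4.96% (2.29% to 10.4%), and 5 overlapped P12 H3K4me3, or 4.13% (1.78% to 9.31%). Between these classes the P17 share was 8.89% (5.55% to 14.0%) of the 180 at 1 to 5 kb and 8.43% (5.63% to 12.4%) of the 261 at 5 to 100 kb, with intervals that overlapped that of the nearest class. The higher share thus rested on the 23 remote peaks alone, and it was not tested. Of these, neighbours on chromosome 5 at 123957112 to 123957900 and 123958558 to 123959413 shared 1 H3K4me3 peak at each stage, of 2562 bp at P17 and 2208 bp at P12. Another remote peak with H3K4me3 at both stages, at 123939834 to 123940476, lay in the same gap of the P17 list. The widest missing peak, on chromosome 17 at 39979685 to 39985838 and described below, was also among the remote peaks with H3K4me3. The intervals treat all of these as independent. The median width was 568 bp for the remote peaks and 612 bp for those within 1 kb.

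The EED list, from 1 replicate, was sparse, with 2701 peaks of 303 bp in the median. It covered 1.48 Mb, of which 53.7 kb lay in the HoxA stretch, against 86.4 Mb for P17 H3K27me3. EED was called on 1 of the 585, or 0.171% (0.0302% to 0.962%). It was called on 6.34% (5.92% to 6.78%) of peaks with a P17 H3K27me3 counterpart and 6.11% of all P12 H3K27me3 peaks. EED overlap also moved with width, since 720 of 7063 peaks of at least 1000 bp with a counterpart overlapped it but 0.935% (5 of 535) of those under 500 bp did. Within width classes the intervals of the sets overlapped throughout. The share was lower for missing peaks in each class, and this difference was not tested. Under 500 bp, 0 of 153 missing peaks overlapped EED, with an upper bound of 2.45%. At 500 to under 750 bp it was 0 of 325, with an upper bound of 1.17%, against 1.22% (0.868% to 1.72%) of peaks with a counterpart. At 750 to under 1000 bp it was 0 of 73, with an upper bound of 5.00%, against 1.36% (0.955% to 1.94%). At 1000 bp or more it was 1 of 34, or 2.94% (0.521% to 14.9%), against 10.2% (9.51% to 10.9%). An EED peak lay within 5 kb of 12 missing peaks, or 2.05% (1.18% to 3.55%), against 11.96% (11.4% to 12.5%) of peaks with a counterpart. Under 500 bp that share was 1.31% of missing peaks (0.359% to 4.64%) against 7.85% (5.86% to 10.4%). At 500 to under 750 bp it was 2.46% (1.25% to 4.78%) against 8.84% (7.81% to 9.99%). At 750 to under 1000 bp it was 0% (upper bound 5.00%) against 8.03% (6.96% to 9.24%). At 1000 bp or more it was 5.88% (1.63% to 19.1%) against 14.7% (13.8% to 15.5%), and only there did the intervals overlap.

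The single missing peak with EED was also the widest, on chromosome 17 at 39979685 to 39985838 (6154 bp). An EED peak covered 5944 bp of it, the H3K4me3 peak on it was 6995 bp wide at P17 and 6867 bp wide at P12, and the nearest P17 H3K27me3 peak was 265846 bp away. From general knowledge of mm9, this is the place of Rn45s, the ribosomal RNA precursor, a multicopy sequence, although no mm9 annotation was used to check it. The count files list Rn45s with 207433 H3K27me3 reads at P17 and 43756 at P12, or 7779 and 3250 CPM, a log2 ratio of 1.26 (counting interval 1.24 to 1.27). Rn45s was chosen after its values were seen, and reads of its copies cannot be told apart.

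Several other wide missing peaks lay together in short gaps of the P17 list. On chromosome 4, peaks at 134721931 to 134725878 (3948 bp) and 134727719 to 134732107 (4389 bp) belonged to 4 missing peaks that covered 10.0 kb of an 18.6 kb gap between P17 peaks. The second of these overlapped a P17 H3K4me3 peak of 1013 bp and no P12 H3K4me3 peak, while the first overlapped neither. On chromosome 8, peaks at 123544884 to 123546722 (1839 bp) and 123546989 to 123548835 (1847 bp) were part of 6 missing peaks in a row that covered 7.12 kb of a 28.9 kb gap, none with H3K4me3 at P17. A further group, also on chromosome 4, held 3 missing peaks over 5.14 kb of a 19.3 kb gap, among them one at 153852738 to 153855493 (2756 bp), 1021 bp from P17 H3K27me3. No other gap outside the HoxA stretch held more than 2.72 kb of missing peaks, apart from that of the chromosome 17 peak above.

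The remaining wide ones stood alone. Of them, 3 had H3K4me3 at both stages, namely chromosome 18 at 57833109 to 57835076 (H3K4me3 peaks of 1500 bp at P17 and 991 bp at P12), chromosome 18 at 38227628 to 38229506 (1770 bp at P17 and 1782 bp at P12) and chromosome 11 at 109157293 to 109158996 (1512 bp at P17 and 1284 bp at P12). They lay 110259, 2261 and 974 bp from P17 H3K27me3. The peak on chromosome 17 at 31570328 to 31572210 (1883 bp) lay 7075 bp from it and had no H3K4me3.

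The farthest missing peak, on chromosome 7 at 101190916 to 101191716 (801 bp), lay 946208 bp from any P17 H3K27me3 peak and 143609 bp from any P17 H3K4me3 peak. On chromosome 19, a peak at 26239331 to 26239816 lay 400573 bp from P17 H3K27me3 yet overlapped H3K4me3 peaks of 1222 bp at P17 and 847 bp at P12. The other 3 of the 5 farthest were neighbours on chromosome 16, at 27376535 to 27376958, 27382653 to 27383100 and 27385386 to 27386205, and overlapped no H3K4me3. In the order of the P12 list, 420 missing peaks were not next to another missing one, runs of 2 numbered 47 and runs of 3 numbered 15. Missing peaks were 4.50% of P12 peaks outside the HoxA stretch, and the number of runs to be met at that share was not computed. The longest run, of 29 peaks on chromosome 6 at 52071237 to 52237505, was made of the 26 peaks of the HoxA stretch and 3 of the 585 beside it. The next held 6 peaks (the chromosome 8 group above) and 5, on chromosome 2 at 92786539 to 92932218. Runs of 4 numbered 3, the most extended of which lay on chromosome 8 at 88777452 to 89479807.

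Missing peaks were found on every chromosome that had P12 H3K27me3 peaks. Their share of P12 peaks ran from 0.833% on the X chromosome (1 of 120; 0.147% to 4.57%) and 2.41% on chromosome 10 (14 of 581; 1.44% to 4.004%) to 6.56% on chromosome 8 (57 of 869; 5.10% to 8.40%). Over the genome outside the HoxA stretch it was 4.50% (4.16% to 4.87%). No annotation of mm9 was used, so the genes at these positions are not named.

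The 26 peaks of the HoxA stretch included the widest of the P12 list, and EED lay on a larger share of them than of all P12 H3K27me3 peaks. They ran from 447 to 43007 bp with a median of 1580 bp and covered 114 kb, or 85.8% of the 133 kb stretch, while P17 H3K27me3 peaks covered 0 of it. P17 peaks closed in on both ends, ending at 52097776 and starting again at 52230509. The other lists held peaks there. The 22 P17 H3K4me3 peaks inside the stretch covered 46.1% of it, the 25 P12 H3K4me3 peaks 37.2%, and the 47 P17 EED peaks 40.4%.

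Of the 26, 13 overlapped H3K4me3 at P17, 14 overlapped it at P12, and 8 overlapped EED. The widest, at 52149265 to 52192271 (43007 bp), held 25 EED peaks that covered 30061 bp of it. The next, at 52192319 to 52204999 (12681 bp), held 7 EED peaks over 8717 bp, and that at 52112350 to 52122006 (9657 bp) held 4 over 6254 bp. Peaks at 52211092 to 52217152 (6061 bp) and 52106113 to 52111799 (5687 bp) held 4 and 2 EED peaks. Each of these 5 widest overlapped H3K4me3 at both stages. EED, a part of the complex that writes H3K27me3, was thus called at P17 in parts of the stretch in which no P17 H3K27me3 peak is listed. Other parts held none, and the peak at 52138219 to 52141548 lay 10342 bp from the nearest EED peak.

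**Figure D4:**
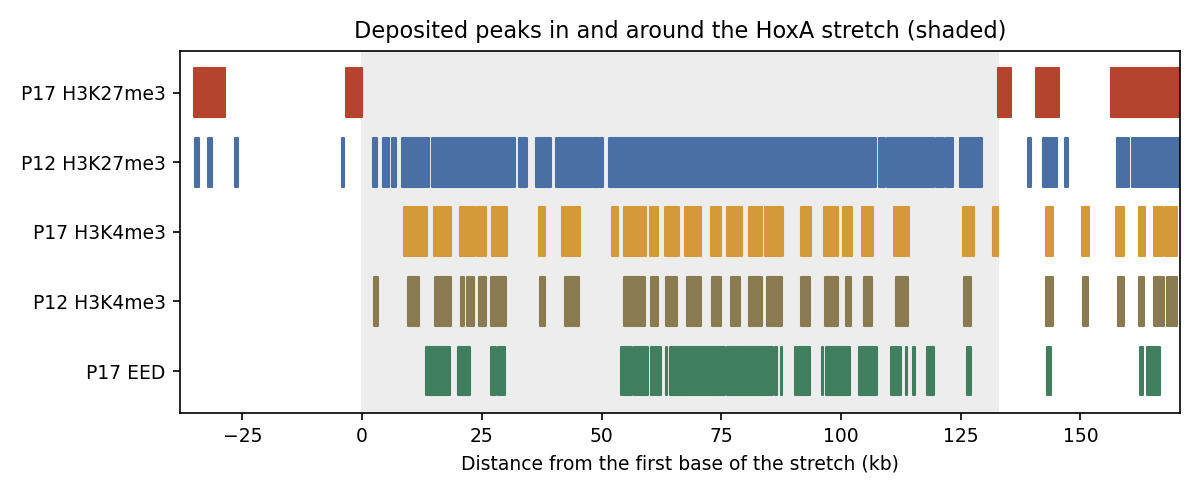
Deposited peaks in and around the HoxA stretch (shaded), drawn to scale in kb from its first base, with 1 row for each list. The P17 H3K27me3 row is empty over the 133 kb, which hold 26 P12 H3K27me3 peaks, 22 P17 and 25 P12 H3K4me3 peaks and 47 P17 EED peaks.

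H3K27me3 reads were counted over the HoxA gene bodies at P17 as at P12. The counts come from the same H3K27me3 libraries as the peaks, scaled to 26664736 counted reads at P17 and 13462873 at P12. Together the 10 HoxA genes analysed held 28066 reads at P17 and 11011 at P12, or 1053 and 818 CPM, where overlapping genes count shared reads more than once. Their median log2 ratio of P17 over P12 was 0.44, against -0.08 over all 21808 genes with at least 20 reads and 0.40 over 28 genes of the HoxB, HoxC and HoxD clusters. The counting interval of the ratio lay above 1 for 9 of the 10 HoxA genes and for 27 of the 28 HoxB, HoxC and HoxD genes. It did so for 16.9% of all genes. It lay below 1 for 1 HoxA gene and for 0 of the 28, where it did so for 21.2% of all genes. With 1 count file per stage these intervals have no replicate check.

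Hoxa5, known for its part in lung and axial patterning and printed above by its promoter, held 62.7 CPM at P17 and 40.5 CPM at P12 (log2 ratio 0.63; 0.49 to 0.77). Hoxa13, the gene of the most distal limb and genital patterning, held 50.1 CPM at P17 and 36.7 CPM at P12 (0.45; 0.30 to 0.60). Hoxa9, known for its role in blood progenitors, held 79.8 CPM at P17 and 56.3 CPM at P12 (0.50; 0.38 to 0.62). These are ratios over gene bodies, not promoters, and Hoxa5 was picked for its ratio, so nothing is read from them about CG content.

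Hoxa4 was the exception, with 10.8 CPM at P17 and 15.4 CPM at P12, or 287 and 208 reads, a log2 ratio of -0.52 (-0.78 to -0.26). Hoxa3 held 444 CPM at P17 and 366 CPM at P12 (0.28; 0.23 to 0.33), but its RefSeq gene in GRCm38 overlaps Hoxa4, Hoxa5 and Hoxa6, so their reads cannot be assigned with certainty. The remaining genes, Hoxa2, Hoxa6, Hoxa7, Hoxa10 and Hoxa11, had log2 ratios of 0.51, 0.37, 0.51, 0.43 and 0.24. Hoxa11 has an antisense partner in the count files, and whether the counting used strand is not given in the sources used here. Of neighbours of the cluster, Evx1, a homeobox gene beside Hoxa13, held 121 CPM at P17 and 102 CPM at P12 (0.25; 0.16 to 0.35). Hibadh, an enzyme of valine breakdown, stood at -0.08 (-0.20 to 0.05), Snx10, a sorting nexin, at 0.05 (-0.09 to 0.19) and Skap2, an adaptor of immune signalling, at -0.21 (-0.30 to -0.13). The cause of the gap in the P17 list was not tested, and absence from the list is not taken as absence of H3K27me3.

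**Figure D5:**
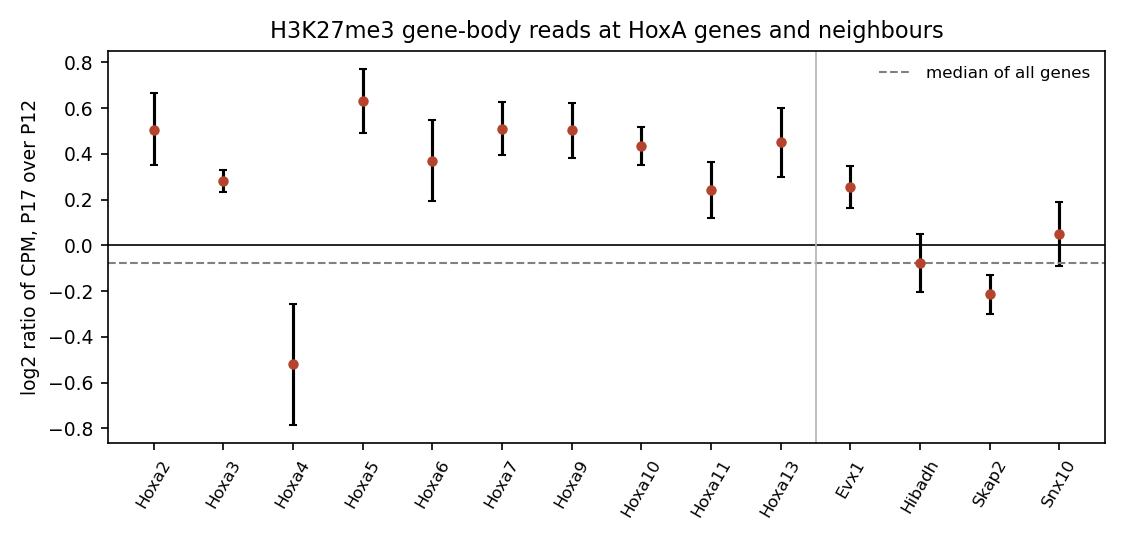
Log2 ratio of H3K27me3 gene-body CPM, P17 over P12, for the 10 HoxA genes analysed and, right of the vertical line, 4 neighbouring genes. Points are ratios, whiskers 95% counting intervals and the dashed line the median of all genes at -0.08; Hoxa4 lies at -0.52, and the other HoxA genes drawn lie between 0.24 and 0.63.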

How the data were processed

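Peaks were called by the authors with MACS, as the names of the deposited peaks show, at a level of 5 that the file names give for the false discovery rate, and are listed by mm9 position with no scores. The H3K27me3 read counts per gene symbol were deposited unscaled, and the file naming points to multiBamCov. The submitters' processing notes name Bowtie, SAMtools and HTSeq without roles or versions. Settings of the caller: not given in the sources used here.

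From these, positions were counted from 1, and a P12 H3K27me3 peak was missing when it shared under 1 bp with all P17 H3K27me3 peaks. Distances are the bases between 2 peaks. Overlap with the other lists also needed 1 bp. Shares have Wilson 95% intervals. Counts were scaled to the library total. Log2 ratios have a pseudocount of 1 read and exact conditional (Clopper-Pearson) intervals, for genes with at least 20 reads and an unrepeated symbol. Python 3.11.15, SciPy 1.17.1, pandas 2.3.3 and R 4.3.3 were used, with edgeR 4.0.16 and DESeq2 1.42.0 for scaling factors only. Overlaps, distances and intervals were tested on simulated data.

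Regions named in the text were the 10 widest, the 5 farthest from P17 H3K27me3, those with EED, the 5 widest with P17 H3K4me3, the 3 longest runs, 3 on each side of the rule and the 5 widest of the HoxA stretch. Genes named were 10 HoxA genes and 4 neighbours; a result that the rule would also have named is not reported here. The groups of wide peaks in gaps of the P17 list, and Rn45s, were chosen after their values were seen. The members and lists were chosen with earlier results of these data known.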

Additional observations from a re-analysis of the deposited data

How the results depend on the processing

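Of 42 recomputed values, 32 stayed within 1.5 times the reported count or within the interval of the reported value, 10 moved outside it and 0 changed sign. Restricting P12 peaks to at least 1000 bp left 34 missing peaks outside the HoxA stretch, of which 23.5% overlapped P17 H3K4me3, 17.6% P12 H3K4me3 and 2.94% EED. Their median width was 1250 bp and their median distance to P17 H3K27me3 6108.5 bp, so the set as described is one of narrow peaks. Extending P17 peaks by 1 kb left 464, with a median distance of 7497 bp, by construction. Keeping the HoxA stretch in raised the share with EED to 1.47%. Requiring 50% cover gave 623 missing peaks, merging P12 peaks within 1 kb gave 545, and neither moved a share, width or distance beyond its interval. The HoxA median log2 ratio was 0.52 with edgeR TMM factors and 0.52 with median-of-ratios factors, with 9 of 10 genes above 0 under every scaling, filter and pseudocount tried. A stricter peak threshold could not be tried without scores. No paired analysis was possible because each mark and stage has 1 file. Depth at the 585 missing intervals was not analysed here, so a mark below the calling threshold at P17 cannot be told apart from an absent one.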
